A study of Mus musculus with 8 samples.

Results

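The CGs described here lay in small groups at which the liver DNA of a B6 female mouse was far more methylated than that of a DBA female mouse. They were chosen from the counts of these 2 mice alone. An autosomal CG cytosine was taken when at least 10 reads covered it in both mice, when its methylation level was more than 50 percentage points higher in B6, and when another such cytosine lay within 100 bp. Each strand of a CG was counted as a separate site. Of 859630 cytosines with 10 reads in both mice, 4368 passed the difference and 1274 of these, or 29.2%, had such a neighbour. The 1274 clustered cytosines belonged to 1124 different CGs and made up 0.148% of those tested. With the strains exchanged, the same rule found 233 cytosines. The sites were all CGs of the reference genome, which comes from a B6 mouse. A CG that only DBA holds could not be counted, while a CG that DBA has lost could. The 2 counts therefore do not compare the strains evenly.

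The series holds reduced representation bisulfite sequencing (RRBS) libraries of liver DNA from 8 mice, 1 female and 1 male of each of 4 groups. The parents were inbred C57BL/6J (B6) and DBA/2J (DBA) mice, and the F1 mice came from reciprocal crosses, BXD with a B6 mother and DXB with a DBA mother. All mice were untreated apart from an overnight fast and were 16 weeks old. Per mouse, between 515372 and 1191980 autosomal CG cytosines had 10 reads or more, with a mean of 51.77 to 96.94 reads at these.

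DNA methyltransferases place methyl groups on cytosines that are followed by guanine, and most CGs of the mouse genome outside CpG islands are methylated in adult tissue. In RRBS the enzyme MspI cuts DNA at CCGG, bisulfite turns unmethylated cytosines into uracil, and the share of reads that still show a cytosine is the methylation level. Inbred strains differ at many bases. A CG that a strain has lost to a base change can also read as unmethylated, and the positions of such changes were not used here, so a lost CG and an unmethylated CG cannot be told apart at a single site. Reads that hold a SNP had been sorted by the authors to the B6 or the DBA chromosome, which lets the chromosomes of an F1 animal be read separately in the same cells.

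The sequences of 11 regions are given first, because they show what these groups of CGs look like. Each is the plus strand of NCBIM37 (mm9), 5′ to 3′, with 12 bases on either side, and the clustered CGs are in capitals. CGs in lower case were not among the clustered ones. The first 4 had intermediate levels on the DBA chromosome, in a coding exon of Crocc (chr4:140581326-140581426), in introns of Csrp2 (chr10:110360603-110360774) and 4930519G04Rik (chr5:115328844-115329033), and 725 bp from the start of Mink1 (chr11:70422433-70422565).
Crocc: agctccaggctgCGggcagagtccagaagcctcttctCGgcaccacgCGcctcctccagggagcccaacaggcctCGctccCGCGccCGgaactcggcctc
Csrp2: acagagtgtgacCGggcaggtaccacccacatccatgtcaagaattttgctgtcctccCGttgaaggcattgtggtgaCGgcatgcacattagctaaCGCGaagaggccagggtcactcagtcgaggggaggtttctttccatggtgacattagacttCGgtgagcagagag
4930519G04Rik: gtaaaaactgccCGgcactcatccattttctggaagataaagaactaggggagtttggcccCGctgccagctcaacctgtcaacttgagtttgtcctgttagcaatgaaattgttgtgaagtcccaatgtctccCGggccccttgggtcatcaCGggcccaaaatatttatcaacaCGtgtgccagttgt
Mink1: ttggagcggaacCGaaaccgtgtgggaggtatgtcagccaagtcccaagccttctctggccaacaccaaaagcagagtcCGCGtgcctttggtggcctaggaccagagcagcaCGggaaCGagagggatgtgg

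The next 5 had no or almost no methylation on the DBA chromosome, in introns of 9830001H06Rik (chr2:156855017-156855203) and Aldh4a1 (chr4:139201045-139201202), and between genes (chr11:27346176-27346226, chr5:101787211-101787273 and chr14:86674183-86674208). The last 3 are called by the nearest start, that of Vrk2 at 852198 bp, of Nkx6-1 at 307021 bp and of Diap3 at 818729 bp. The Diap3 region is a single CG, which qualified through its 2 strands. The 31 bases around that CG occur 134 times in the reference genome.
9830001H06Rik: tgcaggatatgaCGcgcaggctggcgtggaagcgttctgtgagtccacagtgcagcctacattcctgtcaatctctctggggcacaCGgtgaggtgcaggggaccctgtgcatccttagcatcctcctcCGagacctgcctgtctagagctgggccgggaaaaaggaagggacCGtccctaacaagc
Aldh4a1: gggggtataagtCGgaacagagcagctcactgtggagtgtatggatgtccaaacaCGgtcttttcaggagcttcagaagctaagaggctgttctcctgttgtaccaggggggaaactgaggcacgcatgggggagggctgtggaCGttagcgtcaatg
Vrk2: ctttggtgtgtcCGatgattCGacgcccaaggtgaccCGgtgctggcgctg
Nkx6-1: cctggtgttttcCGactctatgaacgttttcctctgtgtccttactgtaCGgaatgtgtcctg
Diap3: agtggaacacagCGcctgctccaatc

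The last 2 did not keep the difference of the female parents in every other mouse. Filip1l kept it in none, and in Zbtb16 the F1 males read alike on both chromosomes while the F1 females were higher on B6. They lie in introns of Filip1l (chr16:57391693-57391783) and Zbtb16 (chr9:48607301-48607361).
Filip1l: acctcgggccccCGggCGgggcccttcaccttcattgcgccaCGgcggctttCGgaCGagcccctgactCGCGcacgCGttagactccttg
Zbtb16: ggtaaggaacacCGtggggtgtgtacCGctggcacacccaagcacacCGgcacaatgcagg

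Joined where they lay at most 100 bp apart, the clustered cytosines formed 504 regions with a median span of 33.5 bp and a longest span of 341 bp. Of these, 108 regions held 1 CG covered on its 2 strands (216 cytosines), 292 held 2 different CGs (608 cytosines) and 104 held 3 or more (450 cytosines). The most CGs in a region was 9, in 1 region. The level in the B6 female was high in every size class, with medians of 88.5%, 88.7% and 86.3%. In the DBA female the medians were 0%, 0% and 15%. Exactly 0% was read in the DBA female at 84.3% of cytosines in 1-CG regions, at 50.2% in 2-CG regions and at 20.2% in regions of 3 or more. These levels chose the cytosines and are given as a description. Near the limit of 50 points, the lowest difference inside was 50.04 points with 147 cytosines less than 5 points above the limit. Among cytosines that had a neighbour past the limit within 100 bp but were not past it themselves, the highest difference was 50 points, and 183 lay less than 5 points below it.

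**Figure D1:**
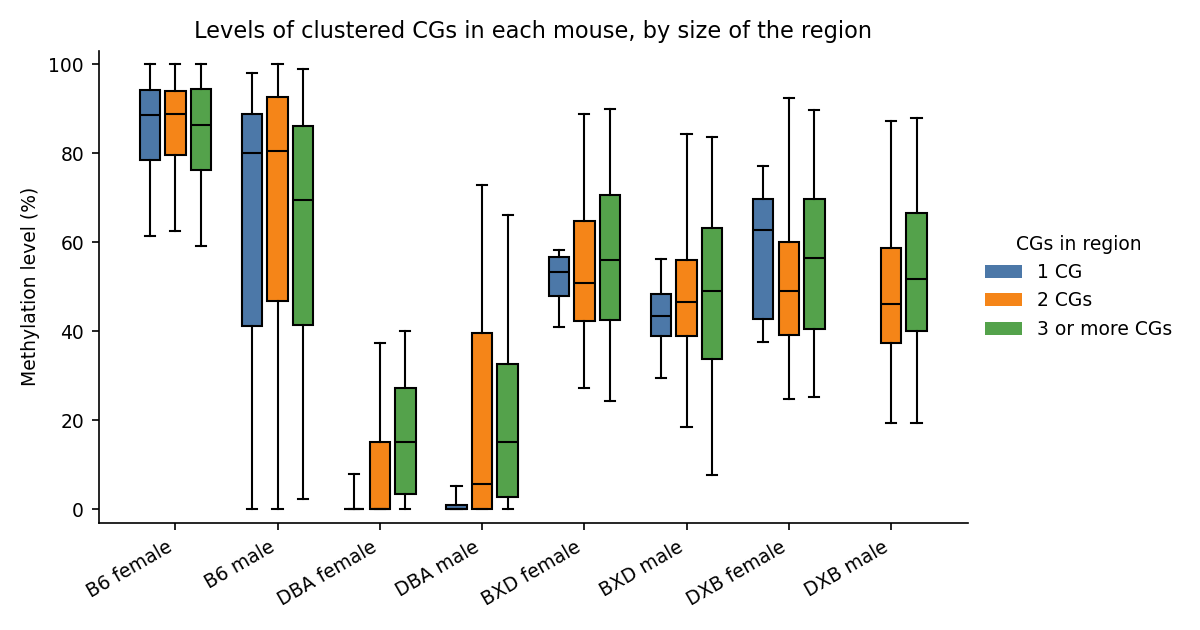
Methylation level (percent) of the clustered CGs in each of the 8 mice, by the number of different CGs in the region; boxes hold the middle 50% of cytosines, lines mark medians and whiskers run from the 5th to the 95th percentile (1-CG regions are not drawn for the DXB male, with too few reads). The F1 mice lie between the parents, with medians from 46.2% to 52.8% over all regions, and the DBA levels of 1-CG regions lie at or near 0.

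The regions were cut into kinds by their levels in the DBA female. In 287 regions every clustered cytosine was at or under 5% in the DBA female, in 142 every one was above 5%, and 75 held some of each. Where all were at or under 5%, 86 regions had other tested cytosines between the clustered ones. At least 1 of these differed by less than 10 points in 71 of the 86 (82.6%). Where all were above 5%, this was so in 10 of 51 regions (19.6%). Reads sorted by SNP covered 70.4% of the cytosines of the first kind and 16.9% of the second, against 5.89% of all tested cytosines in the B6 female. The CG stood in a CCGG site at 1.27% of the cytosines of the first kind and at 27.3% of the second, against 29.9% of all tested. Within promoters, taken as 1 kb on either side of a start site, lay 3.03% of the first kind and 10.5% of the second. The kinds were cut from the DBA female level after values had been seen, and no test was made between them. The differences of the cytosines in between come from the same female parents, and these cytosines had not passed the rule.

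The intron of 9830001H06Rik shows the first kind base by base. The B6 female read 96.9%, 86.8%, 97.1% and 90.8% at its 4 clustered cytosines, where the DBA female read 0%, 0%, 0% and 0.571%. Other CGs stood between them. The CG 2 bases after the first one read 96.9% in B6 and 100% in DBA, and the CG at 156855173 read 100% and 93.1%. Over the clustered CGs together, the B6 chromosome of the F1 mice read 88% (BXD female), 89% (BXD male), 93.4% (DXB female) and 89.1% (DXB male), and the DBA chromosome 0.532%, 0%, 0% and 0%. Of 291 DBA calls in the BXD male none was methylated. The exact 95% interval reaches 1.26% if the calls are taken as independent, though a read can give several of them. The neighbour at 156855031 was methylated on the DBA chromosome too, at 92.1%, 92.5%, 94.4% and 83.9% in the same mice.

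In other regions the DBA level was lower over a run of CGs without reaching 0 at most of them. One was the coding exon of Crocc, which encodes the ciliary rootlet protein rootletin and belonged to the 75 regions that held some of each. The 7 clustered cytosines ran from 75% to 94.4% in the B6 female against 0% to 38.9% for DBA. The lower-case CG at 140581372 moved the same way, from 63.9% to 16.7%, without reaching 50 points. The B6 chromosome of the F1 mice read 91.2% (BXD female), 83.9% (BXD male), 97.8% (DXB female) and 94.5% (DXB male). Their DBA chromosome read 30.5%, 14.8%, 23.5% and 17%, so the chromosomes did not overlap in any mouse. At 140581372 the DBA chromosome was again lower, with 68.8% on B6 and 14.3% on DBA in the BXD female.

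The F1 mice carried both chromosomes in one liver and took no part in the choice. At 124 clustered cytosines in 83 regions, reads sorted to each chromosome reached 10 in at least 3 of the 4 F1 mice. The B6 chromosome was higher at all 124, with a median difference of 82.2 points and a range from 9.14 to 100 points. By limma on these levels, with Benjamini-Hochberg adjustment over 13679 autosomal CG cytosines, 102 of 124 (82.3%) had an adjusted p below 0.05 and a difference above 50 points. Among all 13679 the share called higher on B6 was 5.63%. That was 770 cytosines, with 23 called higher on DBA, all at CGs of the B6 reference. The share was 76 of 87 in 2-CG regions and 26 of 37 in larger ones, and no 1-CG region reached the reads needed in 3 mice. Cytosines a few bases apart are read from the same molecules, so neighbouring calls are not independent, and the 2 chromosomes of a mouse come from 1 animal. A CG lost in DBA reads as unmethylated on that chromosome in any F1 mouse, so such calls cannot tell lost from unmethylated CGs. Of 520 cytosines sorted in the BXD male, 369 lay in regions wholly at or under 5% in the DBA female. Another 53 lay in regions wholly above 5%, with medians of 84% on B6 and 27% on DBA.

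Mouse by mouse, the study's interval rule asks for 10 reads of each chromosome, each level outside the exact 95% binomial interval of the other, and a difference above 50 points. The BXD female passed at 110 of 133 clustered cytosines against a background of 5.46% of all tested. The BXD male passed at 466 of 520 (background 4.44%), the DXB female at 102 of 122 (5.76%) and the DXB male at 105 of 130 (5.58%). None was called in the other direction. Over all size classes the median level on the DBA chromosome was 0% in each of the 4 mice, and on the B6 chromosome it ran from 86.8% to 89.2%. In regions of 3 or more CGs the DBA chromosome had medians of 24.1% (BXD female), 8.99% (BXD male), 21.4% (DXB female) and 19% (DXB male), while in 2-CG regions they were 0%. The BXD male was the most deeply read and alone covered 128 cytosines of 1-CG regions, with medians of 88.5% on B6 and 0% on DBA. The single CG called by Diap3 read 95.1% of 41 calls on B6 and 0% of 53 calls on DBA in that mouse, with an exact 95% interval up to 6.72%, in sequence that the reference holds 134 times. In the intron of Trak1, in sequence found once, a single CG read 90.9% of 110 calls on B6 and 1.83% of 109 on DBA. It was named after its values were seen.

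**Figure D2:**
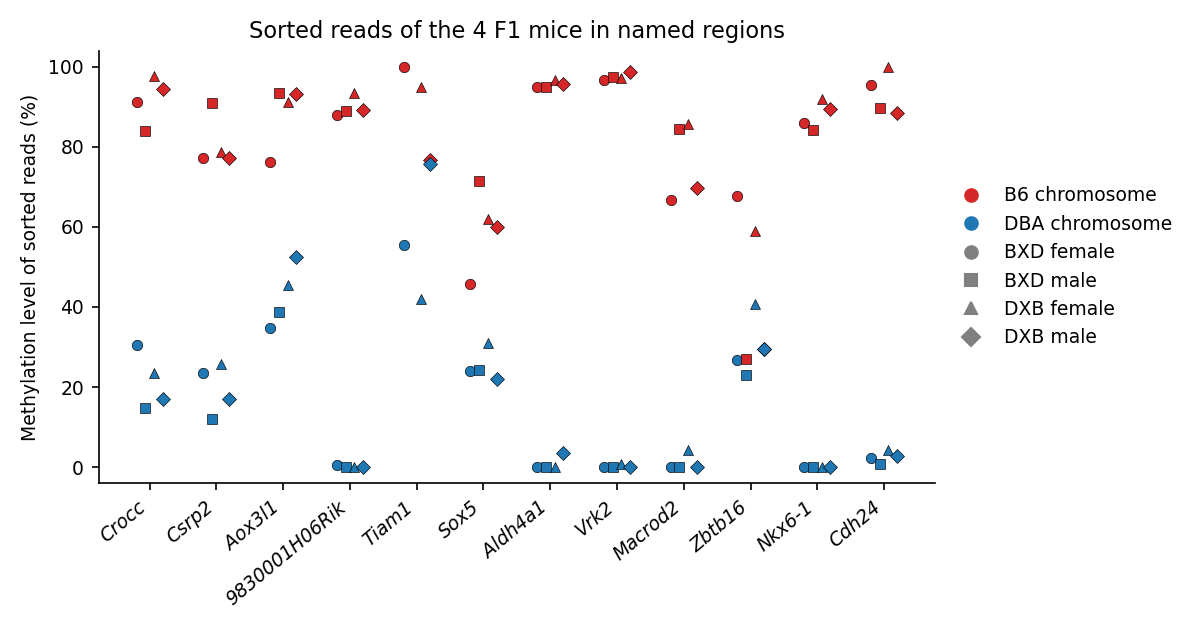
Methylation level (percent) of reads sorted to the B6 (red) or the DBA (blue) chromosome in each of the 4 F1 mice, over the clustered CGs of the named regions in which such reads were tested. In 9830001H06Rik, Aldh4a1, Vrk2, Macrod2, Nkx6-1 and Cdh24 the DBA chromosome lies near 0, in Crocc, Csrp2, Aox3l1 and Sox5 it lies higher, and in Zbtb16 the chromosomes of the males overlap.

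In the intron of Aldh4a1, whose enzyme degrades a product of proline, the B6 chromosome read 94.9%, 95%, 96.7% and 95.7% in the BXD female, BXD male, DXB female and DXB male. The DBA chromosome read 0%, 0%, 0% and 3.57%. At the cytosine tested in all of them, 139201190, the difference was 95.3 ± 1.06 points (SE, adjusted p = 3.84e-09, limma). The CG at 139201196, only 6 bases on, read 100% and 96.9% in the female parents. On the DBA chromosome of the F1 mice that CG read 97.4%, 97.1%, 93.3% and 96.4%.

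The 3 clustered CGs of the intergenic region called by Vrk2, whose start is 852198 bp away, lay within 26 bp and differed by 95.1 to 100 points between chromosomes, the largest adjusted p being 3.72e-09 by limma. The CG at 27346200, between the second and the third of them, read 95.7% and 84.6% in the B6 and DBA females. In the BXD male 324 calls came from B6 and 36 from DBA, and the level over all reads was 87.2%, against 51.6% to 65.8% in the other F1 mice. In the intergenic region 307021 bp from the start of Nkx6-1, the tested cytosine differed by 88.5 ± 1.34 points (SE, adjusted p = 1.56e-08, limma), and the DBA chromosome read 0% in all 4 mice. The CG at 101787236, between the clustered ones, moved the same way, with 51.2% and 21.9% in the B6 and DBA females. In the BXD male it read 69.7% on B6 and 11.2% on DBA. The intron of Macrod2, an ADP-ribose hydrolase gene, differed by 67.9 to 83.1 points at its 3 cytosines.

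Csrp2 encodes a LIM-domain protein. In its intron the B6 chromosome read 77.1%, 90.9%, 78.7% and 77.1% in the BXD female, BXD male, DXB female and DXB male, and the DBA chromosome 23.4%, 12.1%, 25.8% and 16.9%. The 2 cytosines tested across mice differed by 64.2 ± 3.59 and 53.9 ± 3.17 points (SE, adjusted p at most 2.15e-05, limma). In the region of Mink1, a kinase gene, B6 chromosomes read 83.7%, 90.3%, 76.8% and 87.9%, and DBA chromosomes 31.5%, 11.8%, 19.6% and 28.8%. The levels of the 2 chromosomes did not overlap in either gene. The 4930519G04Rik region had 10 sorted calls of each chromosome in the BXD male alone, with 94.7% on B6 and 13.1% on DBA, while all reads of the 4 F1 mice gave 57.5%, 57.3%, 60% and 49.3%.

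Not every region with sorted reads passed. In Aox3l1, an aldehyde oxidase gene, the 3 cytosines tested differed by 43.5, 49.8 and 45.4 points, with adjusted p up to 0.0315 by limma but differences under 50 points. The 31-base sequences there occurred 8 times in the reference (median), and 14 times at most. In a coding exon of Tiam1, whose protein activates Rac, the 3 differences were 26.2, 42.0 and 30.1 points, with adjusted p from 0.142 to 0.294. There the DXB male read 76.7% on B6 and 75.8% on DBA, while the DXB female read 95% and 42%. In Sox5, a transcription factor gene, the 1 tested cytosine differed by 32.8 ± 4.68 points (SE, adjusted p = 0.00368, limma).

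In Zbtb16, which encodes the zinc finger factor PLZF, the B6 chromosome read 67.7% in the BXD female and 59% in the DXB female. The BXD male read 26.9% and the DXB male 29.4% on that chromosome, and the B6 male 31.9%, all below both F1 females. The 84.6% of the B6 female had been used in the choice. The DBA chromosome read 26.7% and 40.8% in the F1 females and 23.1% and 29.6% in the F1 males. The allele differences of its 3 cytosines were 10.5, 23.6 and 13.4 points, with adjusted p of 0.404 or more by limma. Tested for a difference between the sexes, the allele difference was larger in females by 13.5 ± 8.27, 33.9 ± 9.49 and 36.4 ± 7.88 points (SE), and no adjusted p was below 0.497. In Tiam1 the same difference was 42.1 ± 14.6, 53.4 ± 10.4 and 47.9 ± 9.14 points (SE, adjusted p of 0.563 or more, limma), from 2 females and 1 male, since the BXD male had too few reads. In Crocc it had the other sign, from -4.12 to -35.1 points, with adjusted p of 0.497 or more, from 1 female and 2 males. With 1 mouse on a side, that mouse and its sex cannot be told apart. Zbtb16 was singled out for this after its values had been seen.

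In sorted reads of the F1 mice, CGs beside the clustered ones were close to equal on the 2 chromosomes. There, 46 other cytosines that lay 1 to 10 bp from a clustered one had a median difference of 1.94 points, and 80.4% of them lay within 10 points of 0. At 11 to 25 bp the median was 0.201 points (52 cytosines) and at 26 to 50 bp 1.63 points (46 cytosines). The male parents gave 3.52 points at 1 to 10 bp (26 cytosines), in the windows with B6 reads described further on. The other cytosines were kept out of the clusters because they had not differed by more than 50 points in the female parents, so part of this step was set by the choice. In the female parents themselves, 322 cytosines at 1 to 10 bp had a median difference of 5.31 points, and 55.9% lay within 10 points of 0. The sorted reads cover mainly the regions with the DBA female at or under 5%, by the shares given above.

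**Figure D3:**
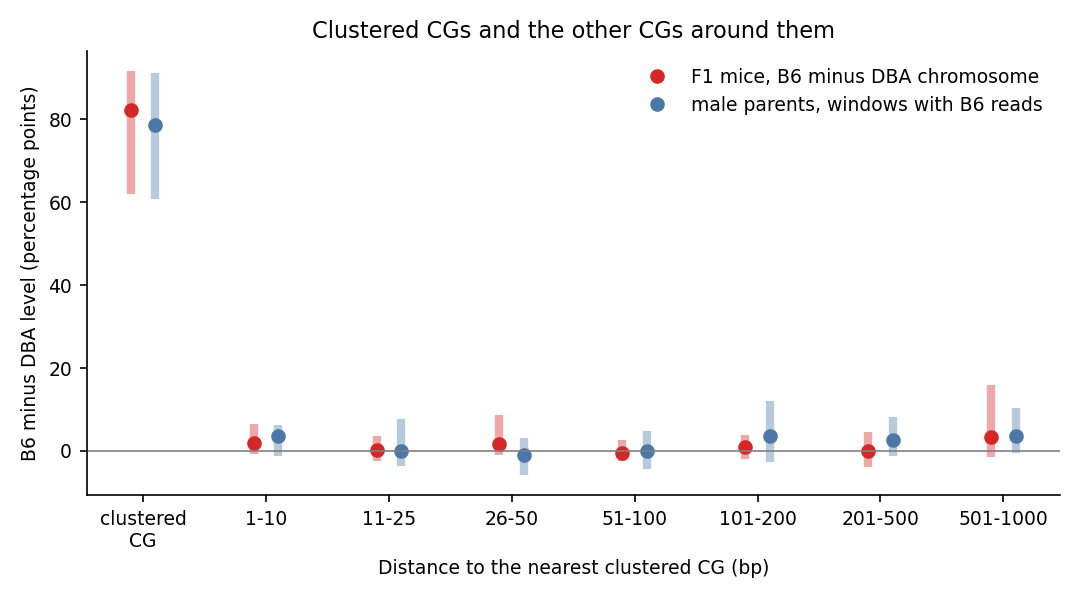
Difference in level, B6 minus DBA (percentage points), at the clustered CGs and at other CGs by their distance (bp) to the nearest clustered one; points are medians and bars hold the middle 50% of cytosines. Sorted reads of the F1 mice are red and the male parents blue, and at every distance outside the clusters the medians lie between -0.929 and 3.57 points.

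The male parents give the other comparison that the choice did not use. At 313 clustered cytosines both males had 10 reads, and the interval rule called 142 of them (45.4%) higher in the B6 male and 1 higher in the DBA male. Of all 316662 autosomal cytosines tested, 0.315% were called higher in B6. The B6 male library held reads of both strains, however. Only 83.94% of its sorted calls were of B6, against 99.66% in the B6 female. In 681 of 6019 windows of 100 kb with at least 20 sorted calls, 90% or more were of DBA. In 4620 windows at most 10% were of DBA, and 718 lay between, so the DBA share was uneven along the genome. Where these reads came from was not tested. The library labelled B6 male was therefore also read by window.

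In windows where at most 10% of the sorted calls were of DBA, 101 of 123 clustered cytosines (82.1%) were called higher in the B6 male, against a background of 0.748%. The median difference there was 78.6 points, and all but 5 cytosines were higher in B6. By region size 32 of 33, 43 of 56 and 26 of 34 cytosines were called, from 1-CG regions to the largest. In windows with mostly DBA calls 5 of 23 were called (background 0.0977%) and the median difference was 0.674 points. Windows with both gave 11 of 31 (background 0.343%). Windows with too few sorted calls gave 25 of 136 (background 0.121%) and a median of 25.2 points, and which reads the B6 male library held there is not known. The males are 1 mouse per strain, so the intervals cover counting error only.

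**Figure D4:**
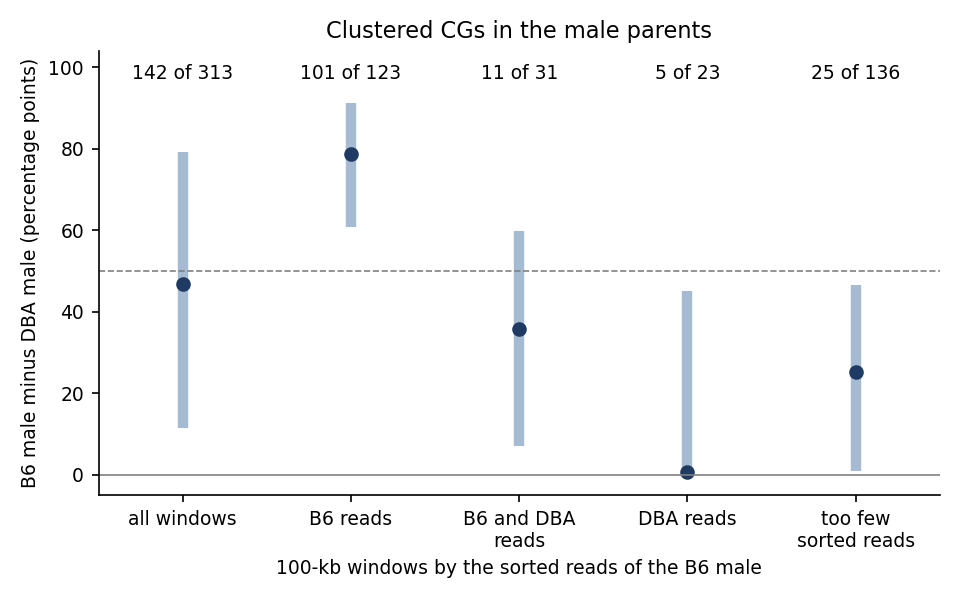
Difference in level between the male parents, B6 minus DBA (percentage points), at the clustered CGs in 100-kb windows sorted by which chromosome the B6 male's reads came from; points are medians, bars the middle 50%, the dashed line marks 50 points and the counts give cytosines called of those tested. The median is 78.6 points where the sorted reads of the B6 male were mostly of B6 and 0.674 points where they were mostly of DBA.

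Crocc shows how this bears on a region. The B6 male read 20% there over all reads, near the 21.4% of the DBA female. Its 14 calls sorted to B6 read 92.9%, while its 146 calls sorted to DBA read 13%. Both are sums over 7 cytosines within 76 bp, each with 22 or 23 reads in that mouse. A read gives several of these calls, so the 14 came from few reads and no interval is given. Across all regions, 59 cytosines had 10 DBA-sorted reads in the B6 male, with a median of 0%, and 217 had 10 B6-sorted reads, with a median of 87.1%. By these medians the B6 male library had the low level on its DBA reads and the high level on its B6 reads. In regions of 3 or more CGs this was less clear. There 16 cytosines had 10 DBA-sorted reads, with a median of 11.9% and an upper quartile of 52.4%. In 9830001H06Rik, Aldh4a1 and Csrp2, which lie in windows with B6 reads, the B6 male read 88.1%, 93.9% and 83.6%. Zbtb16 and Arfip1 lie in such windows too, and there the B6 male read 31.9% and 44.6%. All 69 calls of that mouse in Zbtb16 were sorted to B6.

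Over all reads the F1 medians lay near the middle between those of the female parents. At the 401 cytosines with 10 reads in all 4 F1 mice, the medians were 52.1% in the BXD female, 50.3% in the BXD male, 50% in the DXB female and 49% in the DXB male. The female parents had 89.1% (B6) and 11.9% (DBA) at the same cytosines, levels that had been used in the choice. The male parents, not used in it, had medians of 76.5% (B6 male, 322 cytosines with 10 reads) and 17.1% (DBA male, 193 cytosines). The B6 male library held DBA reads as well, as given above. Relative to the mean of the female parents, the median difference was 2.21, 1.66, 0.785 and 0.0623 points in the same order of F1 mice. Of 224 regions covered in all F1 mice, 182 (81.2%) lay between 25% and 75% of the way from the DBA to the B6 female, with a median of 51%. The ends of this scale, like the mean above, rest on levels that chose the cytosines. Another 18 lay below 25%, in 6 of them in all 4 mice, and 24 above 75%, in 8 of them in all 4.

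**Figure D5:**
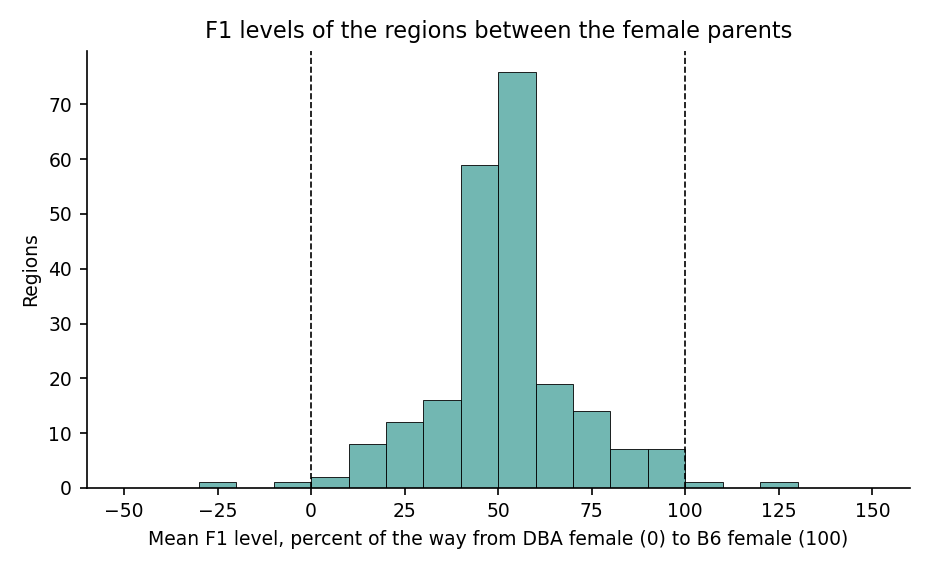
Number of regions (of 224 covered in all 4 F1 mice) by the mean F1 level, given as percent of the way from the DBA female (0) to the B6 female (100). The bars from 40 to 60 hold 135 of the regions, and the ends of the range are -21.3 and 121.

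The direction of the cross made no call. By limma on the levels of the 401 cytosines, fitted with all 479316 tested, 0 differed between BXD and DXB at an adjusted p below 0.05, and the background was also 0%. The smallest adjusted p over all tested was 0.619 by limma. With so few mice, 0 calls do not show that the crosses are equal, and the same holds for the sexes below. At an unadjusted p below 0.05 there were 30 (7.48%), against 6.57% of all tested. The middle 90% of the differences, BXD minus DXB, ran from -16 to 17.4 points. Between F1 females and males 0 of the 401 were called (background 0%), with 51 (12.7%) at an unadjusted p below 0.05 against 7.14% of all tested. For a difference of the allele effect between the sexes 0 of 124 were called (background 0%), with 13 (10.5%) at an unadjusted p below 0.05 against 7.63% of all tested. Of the 124, 89 had both mice of each sex, 26 a single male and 9 a single female.

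The largest region lay in the promoter of A930018M24Rik, 157 bp from its start (chr14:51516780-51517120), and held 9 CGs. It read 85.6% and 81.7% in the B6 female and male, 9.93% and 16.7% in the DBA female and male, and 48.9%, 47.9%, 49.4% and 47.1% in the BXD female, BXD male, DXB female and DXB male. In the BXD male, 180 calls of the B6 chromosome read 83.3% and 234 of the DBA chromosome 17.5%. A coding exon of Tnks1bp1 (chr2:84903127-84903320, 7 CGs) read 88.1% and 89.8% in B6, 23.5% and 29.1% in DBA, and 70.3%, 46.4%, 62.8% and 69.9% in the F1 mice in the same order. The number of clustered cytosines with enough reads differed between mice, so these levels do not rest on the same CGs throughout. A region's level adds the calls at its clustered cytosines and is given from 10 calls on, so that a cytosine can have fewer. Levels of the B6 male in the named regions are over all its reads, of whichever strain.

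A coding exon of Wnt3a, which encodes a secreted signalling ligand, held 8 CGs (chr11:59063329-59063510). It read 87.9% and 84.1% in B6, 33.2% and 5.66% in DBA, and between 56.8% and 74.5% in the F1 mice. An intron of Zap70, a kinase of T cells, held 7 CGs (chr1:36838566-36838715). Its levels were 83.7% and 71.4% in B6 and 42.8% to 52% in the F1 mice, but the DBA parents read 27.9% (female) and 62% (male), so 1 of the DBA mice lay above every F1 mouse. In Slc36a1, an amino acid transporter gene, a coding exon with 6 CGs read 92.4% and 92.5% in B6, 23.1% in the DBA female and 56.1% to 64.8% in the F1 mice.

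An intron of Rtkn2 (7 CGs) read 86.9% in the B6 female and 24% in the DBA female. The B6 male read 55.7% there, in a window where its sorted calls were of both strains. The F1 mice read 48.3%, 59.2%, 61.1% and 88.8%, with the DXB male as high as the B6 female. In the BXD male its B6 chromosome read 82.8% and its DBA chromosome 21.2%. An intron of Arfip1 (8 CGs) read 91.3% in the B6 female and 44.6% in the B6 male, with 35.3% in the DBA female and 47.4% to 65.5% in the F1 mice. Between genes, 543845 bp from the start of Rnf144a, 5 CGs read 68.2% and 68.6% in B6, 7.65% and 14.6% in DBA and 36% to 45.9% in the F1 mice. At 26344 bp from the start of Gm13251, 6 CGs read 67.7% and 63.8% in B6 and 5.95% in the DBA female. The DBA male read 68.8% of 16 calls there, and the F1 mice 39.5% to 77.8% of 15 calls or more.

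In some of the largest regions the F1 mice lay nearer to the B6 female than to the DBA female. The promoter of Rusc2 (8 CGs) read 89.2% and 98.9% in B6, 30.8% and 16.7% in DBA, the last from 12 calls, and from 76.7% to 85.8% in the F1 mice. Between genes, 107711 bp from the nearest start, that of 6720489N17Rik, the F1 mice read 77.2% to 83.2%, B6 read 91.9% and 92.9%, and DBA 25.9% and 38.9%, the last from 18 calls. In Drg1, 86 bp from the start of Sfi1, 6 CGs read 88.1% and 48.3% in B6, 15.7% and 12.5% in DBA and 65.4% to 79.6% in the F1 mice, the B6 male lying below all of these. At 47204 bp from the start of Zfp954 the F1 mice read 75.3% to 83.2%, with 94.7% in the B6 female and 40.9% and 34% in DBA. The B6 male read 42.8% there, below every F1 mouse. In the windows of the Drg1 and Zfp954 regions it had too few sorted calls, so the strain of its reads is not known. The Drg1 region was read far more deeply than usual. Each of its cytosines had 1942 to 1991 reads in the B6 female, where the median over CGs was 56. In the BXD male each had 5478 to 7695, against a median of 71. Its 31-base sequences occurred 1 time in the reference, and the cause of this depth was not tested. The 31 bases around the CGs of the Zfp954 region occurred 26.5 times in the reference genome (median over its cytosines), and those of the 6720489N17Rik region 8.5 times. Over all regions, the 31 bases around a clustered CG occurred more than once at 15% of cytosines, against 7.21% of all tested and 12.9% of tested cytosines above 50% in the B6 female. By the median over a region's cytosines, the 31 bases occurred more than once in 88 regions. Such a region can also hold cytosines whose 31 bases occur once. Of these 88 regions, 25 were covered in all F1 mice and their median position was 69.5% of the way to B6. In the other 416 it was 50.6%, over 199 regions. Whether reads from other copies entered these levels was not tested.

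Filip1l kept the difference of the female parents in no other mouse. Its 8 CGs, in an intron, read 83.2% in the B6 female from 101 calls and 25.1% in the DBA female from 179. The B6 male read 5.38% of 69068 calls and the DBA male 5.39% of 24524. The F1 mice read 12.9%, 8.17%, 13.6% and 11.4%, so the B6 female was the highest by far. The calls of the B6 female came from only 12 or 13 reads at each cytosine, and its level had been used in the choice. The B6 male had 8503 to 8688 reads at each. It had too few sorted calls in this window, so the strain of its reads there is not known.

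A pair of regions 361218 and 364825 bp from the start of Pgk2, the nearest one, with 8 and 6 CGs, did not keep the level of the B6 female in the other mice either. The first (chr17:39984281-39984368) read 62.4% and 40.8% in the B6 female and male, 4.76% and 13% in DBA, and 6.56% in the BXD male. The second (chr17:39980714-39980739) read 58.3% of 480 calls in the B6 female but 2.09% of 16325 calls in the B6 male. There the DBA mice read 0% and 2.94% and the BXD male 6.83%. The other F1 mice had no reads at these CGs. Around both regions the B6 male had too few sorted calls to tell the strain of its reads. At 8083 bp from the start of Vmn1r53, a vomeronasal receptor gene, a region of 3 CGs (chr6:90182509-90182582) read 18.5% in the DBA female, far below the 85.1% of the DBA male, with 64.1% to 86.7% in the F1 mice. Its 31-base sequences occurred 4 times in the reference.

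By position, the clustered CGs resembled methylated CGs in general. Of the cytosines, 6.59% lay in promoters, against 38.1% of all tested and 6.95% of tested cytosines above 50% in the B6 female. By the rule every clustered cytosine was itself above 50% in the B6 female, so part of this likeness was set by the choice. Intergenic sequence held 49.1% of them and introns 35%, against 45.4% and 34.8% of such methylated cytosines. Regions of 3 or more CGs held more in promoters (11.6%) and coding exons (12.4%) than those of 2 CGs (3.29% and 5.43%). The median number of CG cytosines in the 201 bp around a clustered one was 6, against 5 around methylated and 8 around all tested cytosines. In SNP-sorted reads lay 48.7% of the clustered cytosines and 6.2% of the methylated ones. CCGG sites held 12.9% of the clustered cytosines and 42.4% of the methylated ones. Chromosome 14 had the highest share, 0.254% of tested cytosines, and chromosome 8 the lowest, 0.106%.

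Cytosines were given to gene lists by the nearest start, also where they lay inside another gene. The lists were set by the beginning of gene symbols and do not hold every member of a family. Of these lists, the chemosensory receptors had the largest excess over all tested cytosines in percent of cytosines. These odorant and pheromone receptors belong to large gene families. The nearest start was that of such a gene for 33 clustered cytosines, or 2.59%, against 0.707% of all tested and 1.28% of those above 50% in the B6 female. They lay in 11 regions, one of which is that in the intron of Aldh4a1, with the start of Tas1r2 the nearest. Of the others, 3 lay within 1 kb of each other, 8083 to 9011 bp from the start of Vmn1r53, with 6, 4 and 3 clustered cytosines. The largest of these regions read 77.4% and 21.7% in the female parents and 43.6% to 55.5% in the F1 mice. In regions called by Olfr31, Olfr204 and Vmn2r15 the 31 bases had a median of 53.5, 81.5 and 12.5 copies in the reference. In those called by Olfr1339 and Vmn2r97 the median was 1. At 9581 bp from the start of Olfr1339 the levels were 86.4% and 80% in B6, 26% and 25% in DBA, the last from 12 calls, and 50.3% to 61.6% in the F1 mice.

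Enzymes of xenobiotic and steroid metabolism held 0.785% of clustered cytosines against 0.472% of all tested and 0.563% of methylated ones, in 4 regions. An intron of Gsto1, a glutathione transferase gene, held 4 of these 10 cytosines. There the B6 mice read 93.5% and 96.9%, the DBA mice 1.08% and 0%, and the F1 mice 47.9% to 52.1%. In the BXD male the B6 chromosome read 96.4% of 442 calls and the DBA chromosome 0.723% of 415. The intron of Aldh1a3, whose enzyme makes retinoic acid, held a region nearer to the start of Lrrk1 and outside this share, which read 92.9% and 93.8% in B6, 0% in both DBA mice and 33.3% to 71.1% in the F1 mice. A region 116261 bp from the start of Aldh1b1 read 84.7% and 80.5% in B6, 0% in the DBA female and 38.8% in the BXD male.

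Solute carriers and ABC transporters held 2.12% of clustered cytosines against 2.08% of all tested, in 11 regions. At 9861 bp from the start of Slc22a4, a transporter of carnitine and ergothioneine, the BXD male read 93.7% on B6 and 0% on DBA. In an intron of Slc7a8, an amino acid exchanger gene, but nearest to the start of Cebpe, it read 86% and 12.5%. An intron of Slc7a2, another amino acid transporter gene, read 78% in the B6 female, 26.7% and 22.3% in DBA and 25% to 50% in the F1 mice, the lowest from 12 calls. Secreted plasma proteins held 0% of the clustered cytosines against 0.25% of all tested and 0.348% of methylated ones. A region in an intron of Apoh, nearer to the start of Prkca, read 92.4% and 0% in the female parents, with too few reads in the F1 mice.

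Zinc finger genes held 2.2% of clustered cytosines against 2.13% of all tested, in 11 regions. An exon of Zfp710, nearest to the start of Idh2 and so outside this share, read 89.3% and 70% in B6, 26.5% in the DBA female and 53.3% to 63.1% in the F1 mice. An intron of Zfp809 read 66.7% and 41.7% in B6, the last from 12 calls, 5.13% and 34.3% in DBA and 16% to 29.6% in the F1 mice, so that the DBA male lay above all 4. The homeobox, Sox, Pax, Fox and T-box families listed held 1.57% against 2.68% of all tested and 1.45% of methylated ones, in 7 regions. In Sox5 the B6 chromosome of the F1 mice read 45.8%, 71.5%, 61.9% and 60%, and the DBA chromosome 23.9%, 24.3%, 31% and 22%. At 598964 bp from the start of Sox11, in sequence found 16 times in the reference (median), the BXD male read 87.5% and 35.4%. At 23987 bp from the start of Nkx1-1, 3 CGs read 77.8% and 79.1% in B6 and 18.5% in the DBA female, but 62.2% of 45 calls in the DBA male. There the F1 females read 50.3% (BXD) and 31.2% (DXB), below the F1 males at 80.7% and 78.8%. Females minus males, the differences of its 3 cytosines were -39.7 ± 7.4, -38.1 ± 11 and -39.3 ± 7.23 points (SE), with adjusted p of 0.603 or more by limma.

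Cadherins and axon guidance genes held 1.57% against 1.56%, in 10 regions. In Cdh24, a cadherin gene whose region was nearest to another start, the B6 chromosome read 88.4% to 100% and the DBA chromosome 0.82% to 4.26%, and in Ntn1, which encodes the guidance cue netrin, the BXD male read 77.2% and 0%. The regions 687948 and 851556 bp from the start of Cdh18 read 90.1% and 82.2% in the B6 female and 0% in the DBA female. The B6 male read 31.7% of 41 calls and 43.8% of 16 calls. Its window had too few sorted calls at the first and calls of both strains at the second. In the BXD male the B6 chromosomes of these regions read 87.3% and 71%, and the DBA chromosomes 0% and 4.62%. The MHC list had 2 cytosines, 11055 bp from the start of H2-Ob, or 0.157% of the clustered against 0.0548% of all tested and 0.0281% of methylated ones. The 31 bases around 1 of them occurred 343 times in the reference, and the median of the 2 counts was 172, so the other count was far lower. Imprinted genes, the DNA methylation machinery and genes with known functional variants between these strains held 0 clustered cytosines of 3495, 1106 and 857 tested, where the share over all tested was 0.148%.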

How the data were processed

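RRBS libraries of liver DNA from 8 mice were used. The authors digested the DNA with MspI, aligned reads to mm9 with BS Seeker, kept unique positions and sorted SNP-holding reads by parental chromosome. Which version of BS Seeker was run is not given in the sources used here. Deposited were counts of methylated and unmethylated reads for each cytosine and class of reads. The authors deposited the level as a fraction as well, which was not needed. The authors also deposited tables of their own comparisons, whose 12 columns for single mice were not used.

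Counts were added over classes. A level from 10 reads has a resolution of 10 points, and intervals cover counting error only. The members and gene lists were chosen with earlier results of these data known. Regions named are the 20 with most CGs, the 8 with most cytosines tested in sorted F1 reads, and up to 4 for each gene list. Others were named after their values were seen. Genes come from GENCODE for NCBIM37. All CG positions were CG in that sequence. Sorted reads of the F1 mice, BXD against DXB, and the sexes were tested by limma on levels, adjusted over all autosomal CGs tested. Mice are the replicates, 2 per F1 cross, and the mouse as a block was an alternative because both chromosomes come from the same animal. The 31-base sequences centred on each CG were counted on both strands of the reference.

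The interval rule, the cluster rule and limma were tested on simulated data. Tools were limma 3.58.1 (R 4.3.3), samtools 1.23.1, and Python 3.11.15 with pysam 0.24.0, scipy 1.17.1, pandas 2.3.3, numpy 2.4.6, matplotlib 3.10.9 and numba 0.67.0. Reads, SNP positions and expression data were not used here.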

Additional observations from a re-analysis of the deposited data

Results flagged for a closer look

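Each named region covered in the 4 F1 mice, and the median over the clustered cytosines, was examined for a mouse that stood apart from the other 3. Of 43 such groups 3 had one, where chance flags about 1 in 20. In Arfip1, a gene of vesicle traffic, the DXB female read 65.5% and the others 47.4% to 48.7%. In Zap70 the DXB female read 42.8% and the others 50.8% to 52%. In a region of 3 CGs 9011 bp from the start of Vmn1r53 (chr6:90183352-90183450) the DXB male read 25% and the others 54.2% to 59.1%.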

How the results depend on the processing

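With at least 20 reads, 795 clustered cytosines remained of 612006 tested, and the male parents gave 90 calls of 193 tested. Fewer cytosines were tested in either case. Other settings left the counts within 1.5 times: 886 to 1381 cytosines for other differences and distances and for a neighbour on another CG, and 101 to 190 male calls for Fisher's exact test, a 30-point difference and other sets of windows, of which the windows with B6 reads were chosen after seeing the data. Male calls were 101 of 123 tested there. For Fisher's test, counts above 2000 reads were scaled to 2000. With the F1 mouse as a replicate block, which pairs the chromosomes of an animal, 100 of 124 cytosines were called. The count was 114 of 145 at 5 reads, 73 of 82 at 20 reads, 102 by the Cochran-Mantel-Haenszel test, and 80 to 95 without a mouse. BXD against DXB gave 0 calls in each setting, with sex as the block too. F1 medians moved by less than their spread of 2.99 points (SD, n = 4). In 1-CG regions 213 of 216 cytosines had 10 reads in the BXD male and 7 in each F1 female, and the cause was not tested.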
